A study of Bos grunniens x Bos taurus and Bos grunniens with 6 samples.

Results

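Testis tissue of cattle-yak and yak was compared here for the genes of the LINC complex and the nuclear lamina, the protein layers that hold the nucleus in place within the cell. The members were every gene of the expression table whose symbol, ignoring case, was SUN1, SUN2, SUN3, SUN5, SPAG4, SYNE1, SYNE2, LMNA, LMNB1 or LMNB2, which gave 14 gene IDs for 10 symbols among 18918 genes. SYNE1 stood on 5 gene IDs, and each is given on its own. The yak were 3 male Gannan yak (*Bos grunniens*; libraries Yak8, Yak9 and Yak10). The cattle-yak were 3 male F1 hybrids of a Jersey bull and a Gannan yak cow (libraries TES5, TES6 and TES7). All 6 animals were 4 years old, and each library came from 1 animal. The groups were kept in different counties, and the study's methods give euthanasia for yak and castration for cattle-yak while the labels give castration for all, so that place, and possibly the way of collection, cannot be told apart from the group. Expression was measured as FPKM, fragments scaled to the length of the gene model and to the depth of the library. Depth here is near the library's total of fragments on genes.

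SUN domain proteins span the inner nuclear membrane. They bind the lamins on the chromatin side, and between the membranes they bind KASH domain proteins, among them the nesprins encoded by SYNE1 and SYNE2, which reach out to actin and microtubules. In meiotic prophase the complex links telomeres to cytoplasmic motors, and in spermatids testis-specific SUN proteins take part in shaping the head and attaching the tail. Lamins form the mesh under the inner membrane, and germ cells carry less A-type lamin than somatic cells.

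The SUN genes of spermatids, SUN3, SPAG4 and SUN5, were 62.6-fold to 174.3-fold lower in cattle-yak. SUN2, the nesprin genes and LMNA were 2.73-fold to 5.84-fold higher on the deposited scale. Relative to Sertoli cell markers none of them was called higher, but only 0.239% of all tested genes were. Between these, SUN1 and LMNB1 were not called, and LMNB2 fell. These are ratios of group mean FPKM in tissue, in which fewer cells of a type and less RNA per cell cannot be told apart.

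A gene was called where limma on log2 (FPKM + 1) gave a log2 (foldchange) beyond 1 and a p under 0.05 after Benjamini-Hochberg adjustment over the 15042 genes with a mean of at least 0.5 FPKM. All 14 gene IDs passed this minimum, of which SUN5 and the least abundant SYNE1 gene had a mean below it in 1 group. Among the 14 gene IDs, 8 were called higher in cattle-yak, that is 57.1% against 33.4% of all tested genes. The 4 called lower made 28.6%, against 20.8% of all tested genes. The groups did not overlap in 12 of the 14 gene IDs (85.7%), a share near the 84.1% of all tested genes. The median log2 (foldchange) was 1.21 over the 14 gene IDs, with SYNE1 entering 5 times, and 0.51 over all tested genes. The 8 gene IDs called higher hold only 4 symbols, since SYNE1 alone accounts for 5 of them. By symbol, 4 of the 10 were called higher, 4 lower and 2 were not called. The percentages and the median by gene ID therefore lean on SYNE1.

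**Figure D1:**
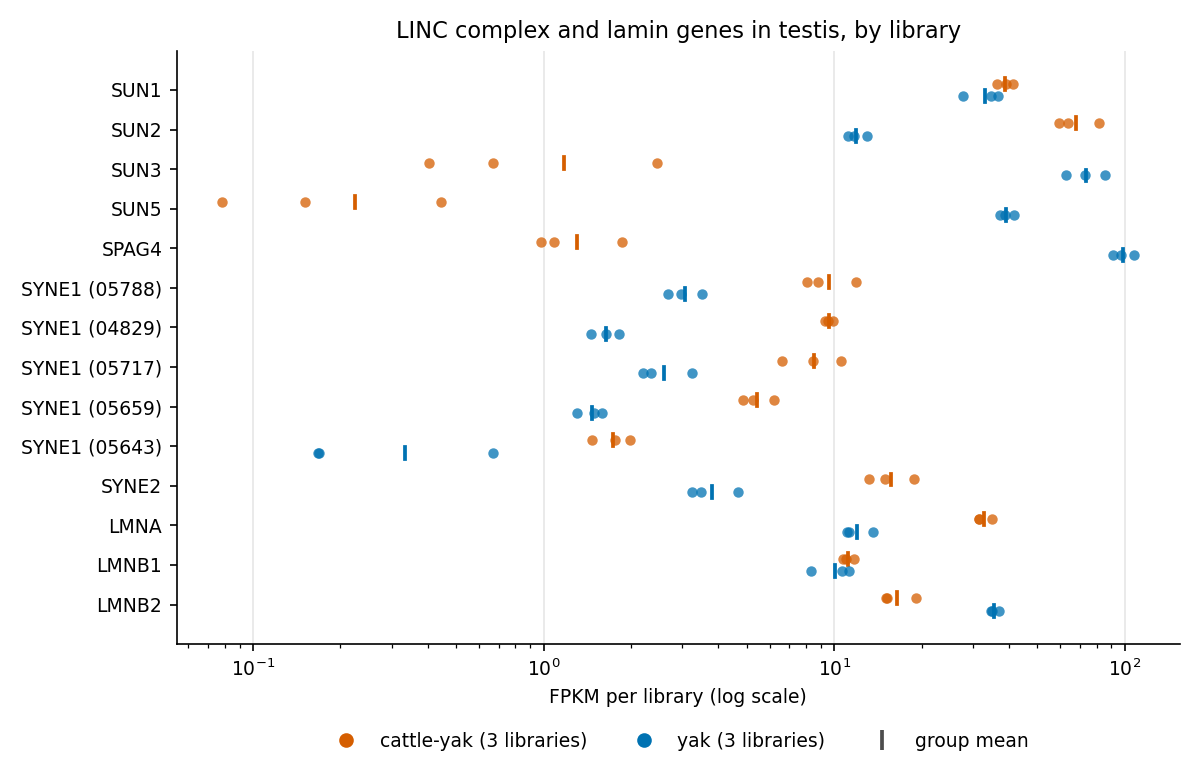
FPKM of each gene ID on a log axis, with a point for each of the 3 cattle-yak and 3 yak libraries and a bar for the group mean; SYNE1 genes carry the end of their gene ID. SUN3, SUN5 and SPAG4 lie at 0.078 to 2.45 FPKM in cattle-yak against 37.4 to 107.8 in yak, and only SUN1 and LMNB1 show groups that overlap.

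SPAG4, also known as SUN4, encodes a SUN protein of spermatids that lies along the manchette, the microtubule skirt that shapes the sperm head. SPAG4 (ENSBGRG00000011566) had 97.2 FPKM in Yak8, 91.3 in Yak9 and 107.8 in Yak10, the highest level of all members in yak. In cattle-yak SPAG4 had 1.86 FPKM in TES5, 1.08 in TES6 and 0.98 in TES7. No cattle-yak library came near the lowest yak library. The log2 (foldchange) of SPAG4 was −5.45 (standard error, SE, 0.16, limma adjusted p = 9.9e-08), at place 250 from the bottom among the tested genes. It was the lowest value of the members with a pseudocount of 1 only, and by the ratio of means SUN5 changed more (174.3-fold against 75.6-fold). From fragments summed over the libraries, 60 in cattle-yak and 5114 in yak, SPAG4 was 75.2-fold higher in yak (95% exact interval 58.3 to 98.7, for counting error only).

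SUN3, a partner of SPAG4 at the manchette, had 72.8 FPKM in Yak8, 62.8 in Yak9 and 85.3 in Yak10. In cattle-yak SUN3 (ENSBGRG00000020775) had 2.45 FPKM in TES5, 0.67 in TES6 and 0.40 in TES7. These rest on 31, 8 and 5 fragments, so that TES5 stood above the other cattle-yak libraries. The log2 (foldchange) of SUN3 was −5.21 (SE 0.31, limma adjusted p = 1.8e-06). It lay between −5.60 and −4.95 with each library left out in turn. The standard error of SUN3 was the widest among the members, and the cattle-yak values had a coefficient of variation of 94.8% against 15.3% in yak.

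SUN5 encodes the SUN protein of the coupling apparatus that joins the sperm head to the tail. SUN5 (ENSBGRG00000004983) had 38.6 FPKM in Yak8, 37.4 in Yak9 and 41.6 in Yak10, against 0.44 in TES5, 0.078 in TES6 and 0.15 in TES7. In cattle-yak this amounted to 6, 1 and 2 fragments, the lowest level of any member. Pooled over libraries, 9 fragments in cattle-yak against 1752 in yak gave a ratio of 171.7 in favour of yak (95% exact interval 90.3 to 376). The log2 (foldchange) of SUN5 was −5.05 (SE 0.15, limma adjusted p = 1.1e-07). On this scale the pseudocount of 1 shrinks the change of genes this low, and with a pseudocount of 0.01 the value was −7.71 for SUN5, −6.37 for SUN3 and −6.28 for SPAG4.

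TES5 was the highest cattle-yak library for each of these genes. It also had the highest summed level of each spermatid marker list, though not of every marker. The 6 gene IDs of the round spermatid list (TXNDC8, ACR, SPATA9, SPACA1 and both genes named CREM) were all called lower, with a summed level of 59.6 FPKM in TES5, 35.6 in TES6 and 14.4 in TES7 against 928.7 to 1087 in yak. The 7 genes of the elongating spermatid list, TNP1 and PRM2 among them, were all called lower too, with summed levels of 184.8, 95.9 and 57.5 FPKM in TES5, TES6 and TES7 against 9879 to 11886 in yak. None of these markers was listed at 0 in every cattle-yak library. Of 7 spermatocyte markers, 1 was called higher (SYCP3), 1 lower (PIWIL1) and 5 were not called, with summed levels of 184.8 to 305.1 FPKM in cattle-yak against 321.2 to 344.9 in yak. The lower sum leans on PIWIL1, with 6.99 to 25.5 FPKM in cattle-yak against 134.8 to 163.1 in yak. The median log2 (foldchange) of the 7 was 0.001. Apart from PIWIL1, SYCP3 and HORMAD1 were higher and SYCP2 lower without overlap of the groups, and the others overlapped. The part of these cells in the levels of SUN3, SPAG4 and SUN5 was not tested.

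SUN2, a SUN gene active in most somatic tissues, moved the opposite way. SUN2 (ENSBGRG00000002838) had 63.7 FPKM in TES5, 81.3 in TES6 and 59.4 in TES7. In yak SUN2 had 11.7 FPKM in Yak8, 11.1 in Yak9 and 12.95 in Yak10. The lowest cattle-yak library was thus far above the highest yak library, and SUN2 went from place 7 of the members in yak to place 1 in cattle-yak by mean FPKM. The log2 (foldchange) of SUN2 was 2.41 (SE 0.14, 95% interval 2.09 to 2.73, limma adjusted p = 1.4e-06), at place 416 from the top among the tested genes. It was the highest value of the members with this pseudocount, but by the ratio of means the longest SYNE1 gene was above SUN2 (5.84-fold against 5.72-fold), as it was with voom on fragments (2.545 against 2.502).

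SUN2 was also 1 of the genes that the study chose for RT-qPCR, an assay whose values were not analysed here. The paper reports that the RT-qPCR patterns of the chosen genes followed its RNA-seq data. The SUN2 primers are shown because SUN2 was the only member among those genes, and they were not aligned to a transcript here. Each has 20 bases, with a GC content of 60% for the forward and 55% for the reverse primer, and they are printed 5′ to 3′.
SUN2 forward: ctgctgagttctcgtccagc
SUN2 reverse: cgagcctcagattcctgtga

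SUN1 binds telomeres to the envelope in meiotic prophase and is also present in somatic nuclei. SUN1 (ENSBGRG00000025294) had 39.0 FPKM in TES5, 41.3 in TES6 and 36.3 in TES7, against 27.7 in Yak8, 34.5 in Yak9 and 36.7 in Yak10. The groups overlapped, at TES7 and Yak10. Its log2 (foldchange) of 0.24 was not called (95% interval −0.05 to 0.53, limma adjusted p = 0.11), an interval that leaves out a change past 1 in either direction on the scale of the deposited values.

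Shares within a library do not depend on how libraries are scaled to each other. SUN3, SPAG4 and SUN5 together held 84.1% of the summed SUN family FPKM in Yak8, 80.7% in Yak9 and 82.5% in Yak10. In cattle-yak they held 4.43% in TES5, 1.47% in TES6 and 1.58% in TES7. The means of 2.49% ± 1.68 (SD, n = 3) and 82.5% ± 1.68 (SD, n = 3) differed by −79.97 percentage points, far more than the animals within a group did (p = 0.1 in a two-sided exact permutation test, the smallest that 3 against 3 allows, and 0.15 adjusted over 3 shares). Counted in fragments instead of per length, the difference was −60.2 points. SUN2 rose from 4.55% to 4.71% of the family in yak to 59.3% to 65.4% in cattle-yak. SUN1 held 11.2% to 14.6% in yak and 33.2% to 37.3% in cattle-yak. The summed level of the family ranged from 97.3 to 124.4 FPKM in cattle-yak, against 237.2 to 284.3 in yak.

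**Figure D2:**
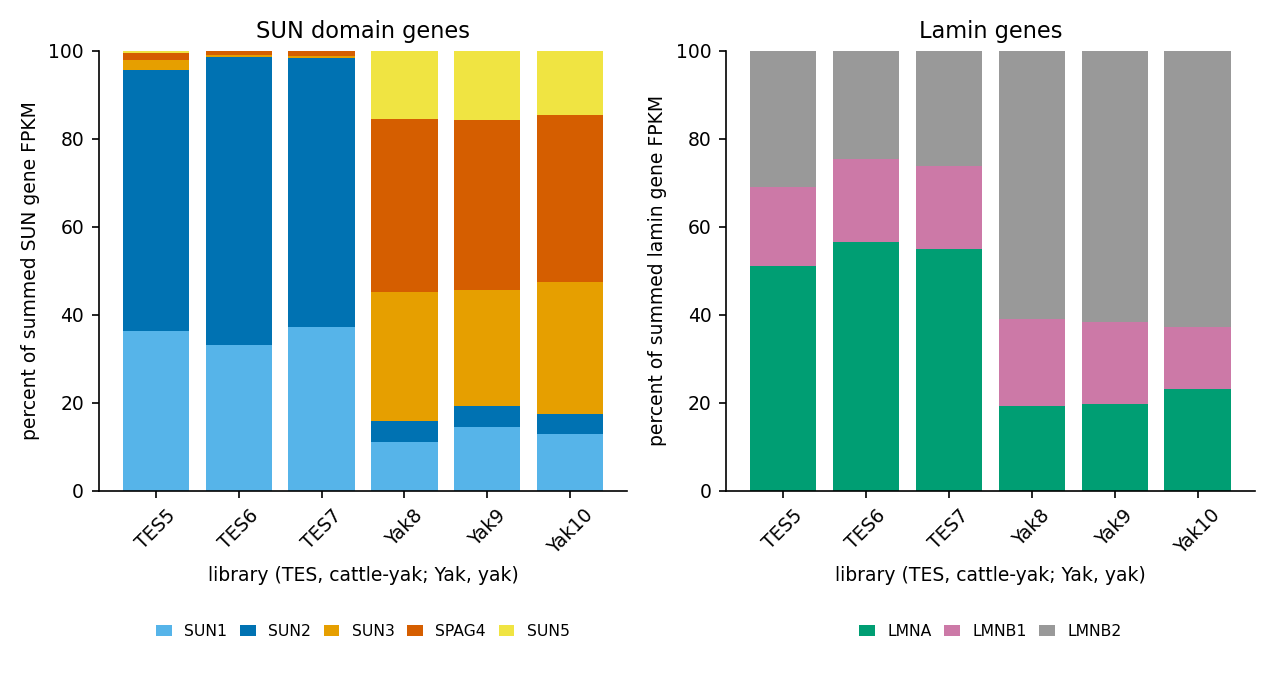
Stacked bars of the percent of summed FPKM that each gene held within its family, by library, for the 5 SUN domain genes and the 3 lamin genes (TES, cattle-yak; Yak, yak). SUN3, SPAG4 and SUN5 fill at most 4.43% of the SUN bars in cattle-yak and at least 80.7% in yak, and LMNA holds 51.2% to 56.5% of the lamin bars in cattle-yak against 19.4% to 23.2% in yak.

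The nesprins of SYNE1 and SYNE2 are giant KASH proteins of the outer nuclear membrane, built of spectrin repeats, with actin-binding ends in their longest forms. SYNE2 (ENSBGRG00000011817, gene model of 21843 bases) had 13.1 FPKM in TES5, 18.9 in TES6 and 14.98 in TES7, against 4.69 in Yak8, 3.24 in Yak9 and 3.47 in Yak10. With 3258 fragments in yak and 11802 in cattle-yak, SYNE2 had the most fragments of the members in cattle-yak. Its log2 (foldchange) was 1.79 (SE 0.18, limma adjusted p = 2.8e-05), with no overlap of the groups.

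The 5 SYNE1 gene models ranged from 765 to 6491 bases, 12413 bases in all, and were not joined here. The longest (ENSBGRG00000004829) had 9.53, 9.88 and 9.31 FPKM in TES5, TES6 and TES7 and 1.82, 1.65 and 1.46 FPKM in Yak8, Yak9 and Yak10. Its log2 (foldchange) of 2.003 (SE 0.13, limma adjusted p = 3.1e-06) was the highest of the 5 with a pseudocount of 1. The others were also called higher, with 1.37 for ENSBGRG00000005788, 1.40 for ENSBGRG00000005717, 1.38 for ENSBGRG00000005659 and 1.05 for ENSBGRG00000005643. The gene last named had 8, 2 and 2 fragments in the yak libraries Yak8, Yak9 and Yak10, and its value fell just under 1 without TES7 (0.99), Yak9 (0.97) or Yak10 (0.97). The pseudocount of 1 holds this low gene down, since its ratio of means was 5.197-fold and its log2 (foldchange) was 2.64 with a pseudocount of 0.01, above the 2.54 of the longest gene. Genes that carry the same symbol are parts of 1 locus or copies of it, which the table does not tell, so they are uncertain and are not independent of each other.

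The balance of the nesprins did not shift beyond the spread between animals. SYNE1, summed over its gene IDs, held 71.3%, 67.4% and 68.7% of the nesprin FPKM in TES5, TES6 and TES7, and 68.1%, 72.4% and 71.7% in Yak8, Yak9 and Yak10. The difference of −1.56 percentage points had p = 0.4 in the exact permutation test, also after adjustment, and the groups overlapped. It was 1.01 points when fragments were counted (means of 24.1% in cattle-yak and 23.0% in yak). With the most abundant SYNE1 gene alone it was −6.94 points (37.9% and 44.8%), so its sign is not settled. The level of the share is not settled either. FPKM is already per length, and adding it over gene IDs counts 1 locus more than once if they are its parts. The summed nesprin level ranged from 45.8 to 57.9 FPKM in cattle-yak, against 11.7 to 14.7 in yak. It adds all SYNE1 gene IDs in the same way and may be too high for the same reason.

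LMNA encodes lamins A and C, the A-type lamins that stiffen somatic nuclei. LMNA (ENSBGRG00000022777) had 31.6 FPKM in TES5, 34.8 in TES6 and 31.6 in TES7, against 11.04 in Yak8, 11.2 in Yak9 and 13.7 in Yak10. The groups did not overlap, and the log2 (foldchange) was 1.38 (SE 0.12, limma adjusted p = 1.2e-05). LMNB2, which encodes a B-type lamin and a shorter spermatid form, went the other way. LMNB2 (ENSBGRG00000001309) had 19.1 FPKM in TES5, 15.2 in TES6 and 15.1 in TES7, against 34.8 in Yak8, 34.96 in Yak9 and 36.9 in Yak10. Its log2 (foldchange) of −1.07 (SE 0.12, limma adjusted p = 5.4e-05) was just past the threshold, with −1.02 to −1.18 when each library was left out in turn. The table gives 1 value per gene, so forms of a lamin gene are not separated.

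LMNB1, the other B-type lamin gene, had 11.02 FPKM in TES5, 11.7 in TES6 and 10.7 in TES7, against 11.2 in Yak8, 10.6 in Yak9 and 8.33 in Yak10. The groups overlapped, and the log2 (foldchange) of 0.14 was not called (95% interval −0.18 to 0.47, limma adjusted p = 0.36). Summed over the 3 genes, the lamin FPKM ranged from 57.4 to 61.7 in cattle-yak, against 56.8 to 58.9 in yak. Within this sum LMNA held 54.2% ± 2.74 (SD, n = 3) in the hybrids against 20.8% ± 2.11 (SD, n = 3) in yak, a difference of 33.5 percentage points (p = 0.1 in the same exact permutation test, 0.15 adjusted). LMNB2 held 24.6% to 31.0% in cattle-yak against 60.97% to 62.6% in yak, while LMNB1 held 17.9% to 18.9% and 14.2% to 19.7%. The near-equal sum holds on the deposited scale only: divided by median-of-ratios size factors it ranged from 45.9 to 50.4 in cattle-yak, against 69.1 to 71.9 in yak. The shares do not depend on that scale.

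Within yak the order of the levels by mean FPKM was SPAG4, SUN3, SUN5, LMNB2, SUN1, LMNA, SUN2, LMNB1, SYNE2 and the SYNE1 genes. The libraries of LMNB2 and SUN1 overlapped in this order, as did LMNA with SUN2, SUN2 with LMNB1 and SYNE2 with a SYNE1 gene. Within cattle-yak the order was SUN2, SUN1, LMNA, LMNB2, SYNE2, LMNB1, the SYNE1 genes, SPAG4, SUN3 and SUN5. LMNB2 and SYNE2 overlapped there, and so did LMNB1 with a SYNE1 gene, the lowest SYNE1 gene with SPAG4, SPAG4 with SUN3 and SUN3 with SUN5. All levels here are divided by model length. The length of 9 of the 14 gene IDs, SUN3 (1068 bases), SUN5 (1140 bases) and SPAG4 (1320 bases) among them, was a multiple of 3, as for 52.9% of all genes with a recovered length. Models of that kind may hold coding sequence without untranslated ends, which bears on levels between genes and not on a gene's change between groups.

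The size and, for some members, the direction of the change depend on the scale between libraries. With median-of-ratios size factors, which bring the overall median change to 0.01, 3 gene IDs were called higher (SUN2, SYNE2 and the longest SYNE1 gene), against 17.7% of all tested genes, and the same 4 were called lower, against 27.7%. SUN1 and LMNB1 then lay below 0, at −0.36 and −0.42. Voom on fragments with the same size factors called 7 gene IDs higher and 4 lower, against 3483 and 4525 of the 15042 tested genes. The count of 3 higher calls thus does not rest on the scale alone. When each library was centred on 13 Sertoli cell marker genes, which moved the median of all tested genes to −1.67, none was called higher (0.239% of all tested genes) and 7 were called lower (72.2%). SUN2 stood at 0.23 there (limma adjusted p = 0.128) and the longest SYNE1 gene at −0.18 (limma adjusted p = 0.239), while SYNE2 had −0.39 and LMNA −0.80. SUN3, SPAG4, SUN5 and LMNB2 were called lower on each of these scales. The 13 Sertoli markers themselves were all called higher on the deposited scale, with a summed level of 2723 to 2876 FPKM in cattle-yak against 543.7 to 621.4 in yak and a median log2 (foldchange) of 2.24. All 9 Leydig and all 6 myoid marker genes were called higher as well, with medians of 1.89 and 2.01, and so were 7 of 8 spermatogonial markers. Of 6 endothelial markers 3 were called higher and 1 lower, and of 7 macrophage markers 4 and 2. The part of these cells in the levels of SUN2, SYNE1, SYNE2 and LMNA was not tested.

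**Figure D3:**
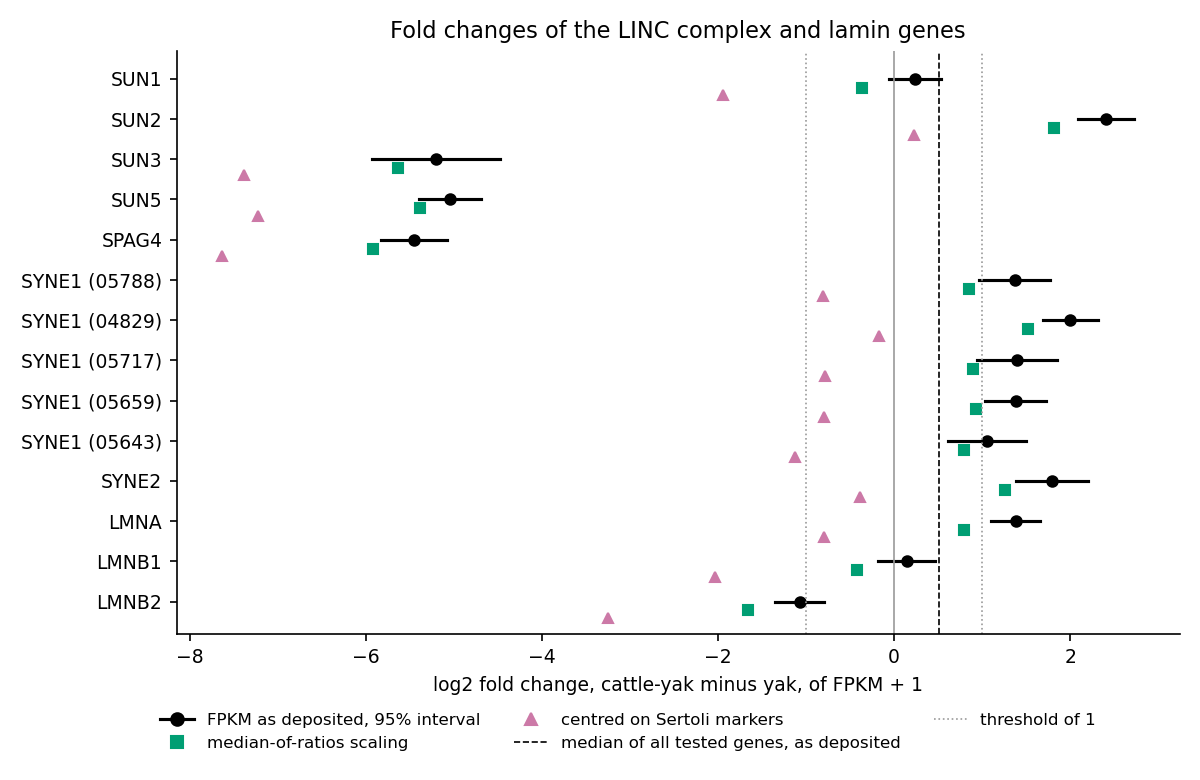
Log2 (foldchange) of FPKM + 1, cattle-yak minus yak, for each gene ID, with black points and 95% limma intervals for the deposited values, squares for median-of-ratios scaling and triangles for centring on Sertoli markers. SUN3, SUN5 and SPAG4 stay below −5 on all 3 scales, whereas SUN1 and LMNB1 change sign and SUN2 lies at 2.41, 1.82 and 0.23.

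The 39 other genes of the envelope and of its attachments came from 7 lists, and 36 gene IDs outside the members were tested. Of these, 7 were called higher, 20 lower and 9 not called, with a median log2 (foldchange) of −1.68. Among all tested genes 33.4% were called higher and 20.8% lower, with a median of 0.51. The head-tail coupling and acrosome lists alone gave 7 and 8 of the 20 lower calls, so the total mostly reflects these lists. The lists split by role. All 7 genes of the head-tail coupling of sperm were called lower (median −3.91), from CNTLN with −1.71 to ODF1 with −7.65. Beside SUN5 these include SPATA6, a structural protein of the sperm neck, with 18.9 FPKM in cattle-yak and 726 in yak, and PMFBP1, a coupling protein that works with SUN5, with 1.04 and 84.2 (group means, n = 3). All 8 gene IDs of the list for acrosome anchoring and its surroundings were called lower too (median −5.36), from ZPBP with −2.61 to FAM209A (ENSBGRG00000013109) with −6.58. FAM209A stands on 3 gene IDs, which are uncertain. DPY19L2, which holds the acrosome to the nuclear envelope, had 153.3 FPKM in Yak8, 191.5 in Yak9 and 145.3 in Yak10, against 18.4 in TES5, 11.8 in TES6 and 4.62 in TES7. ODF1 and SPACA1 of these lists also belong to the spermatid marker lists.

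Of the other KASH genes, SYNE3, which encodes the nesprin that binds plectin, had 25.9 FPKM in TES5, 33.5 in TES6 and 24.3 in TES7, against 3.45 in Yak8, 3.32 in Yak9 and 3.13 in Yak10. Its log2 (foldchange) of 2.74 (limma adjusted p = 1.1e-06) was above that of every member. KASH5, listed as CCDC155, is the meiotic partner of SUN1 that recruits dynein. It had 25.4 FPKM in TES5, 15.4 in TES6 and 15.7 in TES7, against 36.4 in Yak8, 38.4 in Yak9 and 40.3 in Yak10. The groups did not overlap, and its log2 (foldchange) of −1.02 (limma adjusted p = 9.4e-04) was called, but missed the threshold without TES6 (−0.90), TES7 (−0.92) or Yak10 (−0.99). SYNE4 and LRMP lay under the minimum and were not tested, with group means of 0.30 and 0.69 FPKM in cattle-yak and 0.53 and 0.21 in yak.

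The genes of proteins that tie telomeres to the envelope together with SUN1 fell in part. SPDYA, which activates CDK2 at telomeres, had 49.0 FPKM in TES5, 24.1 in TES6 and 22.97 in TES7 against 103.3 to 112.8 in yak, with a log2 (foldchange) of −1.83 (limma adjusted p = 2.2e-04). TERB2 had −1.65 (limma adjusted p = 1.8e-04), and TES5 was again the highest cattle-yak library, with 14.8 FPKM against 7.37 and 9.22. TERB1 (−0.49) and CDK2 (−0.26) were not called on the deposited scale. TERB1 was called lower with median-of-ratios scaling (−1.08). Both were called lower when centred on Sertoli markers (−2.67 and −2.44). TERF1, a shelterin protein of all telomeres, was called higher with 1.12 (limma adjusted p = 9.4e-05) on the deposited scale. TERF1 missed the threshold with median-of-ratios scaling (0.53) and turned to −1.06 when centred on Sertoli markers.

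Of 7 lamin-binding membrane proteins, TMPO, EMD (emerin) and LEMD2 were called higher and TOR1AIP1 lower, while LBR, LEMD3 and ANKLE2 were not called. EMD (1.015) and LEMD2 (1.05) were just past the threshold and missed it with median-of-ratios scaling (0.41 and 0.46), and both were called lower when centred on Sertoli markers (−1.17 and −1.13). TMPO, which encodes the LAP2 proteins, had the highest value with 1.39 (0.81 with median-of-ratios scaling and −0.79 when centred on Sertoli markers). TOR1AIP1, the lamina-bound activator of torsins, had 26.96 FPKM in TES5, 27.5 in TES6 and 24.7 in TES7, against 138.0 in Yak8, 129.7 in Yak9 and 156.1 in Yak10, a log2 (foldchange) of −2.37 (limma adjusted p = 4.2e-07). In the torsin list TOR1A reached 1.04 and was called (−1.14 when centred on Sertoli markers). TOR1B with 0.97 and TOR1AIP2, not itself a torsin gene, with −0.16 were not called. Of the prelamin processing genes, which add and trim the lipid end of lamins, the farnesyltransferase subunit genes parted, with FNTB at 1.18 (−0.999 when centred on Sertoli markers) and the abundant FNTA gene (ENSBGRG00000014526) at −1.77, while ICMT and ZMPSTE24 were not called. A further gene with the symbol FNTA, which is uncertain, lay under the minimum.

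**Figure D4:**
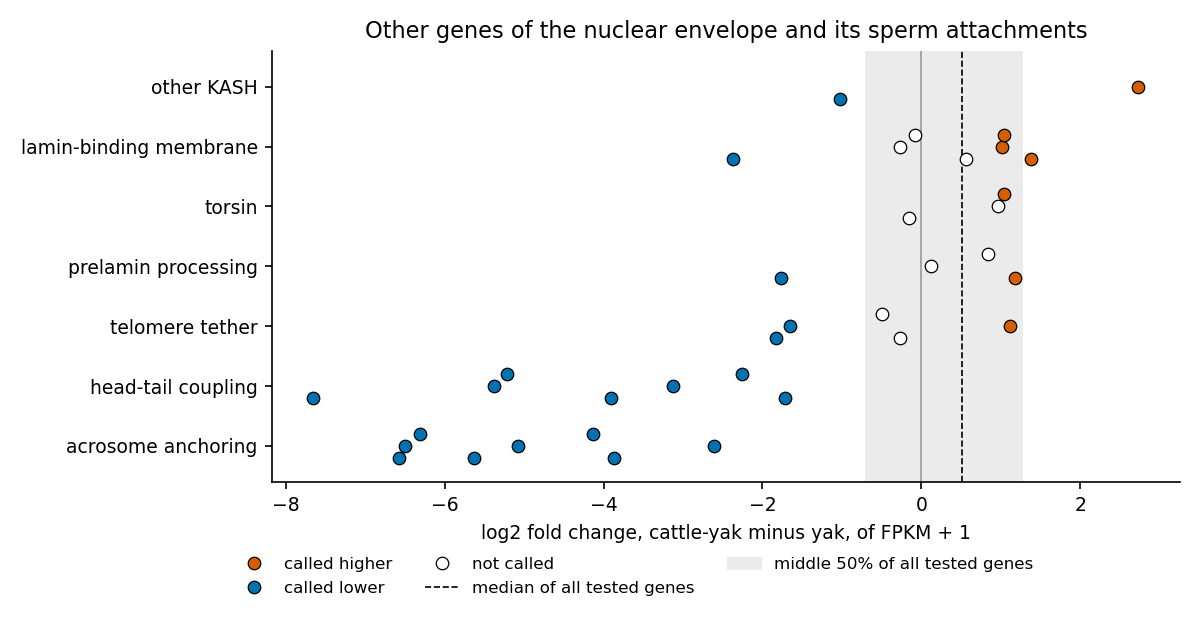
Log2 (foldchange) of FPKM + 1, cattle-yak minus yak, of the tested genes of 7 further lists, 1 point per gene ID, coloured by call, beside the median and the quartiles of all tested genes (dashed line and grey band). The 7 head-tail coupling and 8 acrosome genes lie from −1.71 to −7.65, all below the grey band, and the lists of the membrane, the torsins and prelamin processing spread on both sides of 0.

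Each of the 14 gene IDs carried at least 1 GO term of the nuclear envelope, lamina or membrane in the deposited annotation. The term for the meiotic nuclear membrane microtubule tethering complex, a name for the LINC complex, was given to 15 genes, and 11 of them were the SUN and SYNE members. Spermatogenesis was annotated to 9 members among its 309 genes. Over all 325 tested genes with an envelope, lamina or membrane term, 108 (33.2%) were called higher and 49 (15.1%) lower, with a median log2 (foldchange) of 0.50, near the 0.51 of all tested genes.

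By Euclidean distance of log2 (FPKM + 1) over the 6 libraries, the profiles nearest to SPAG4, the member with the lowest log2 (foldchange) at a pseudocount of 1, were those of AK1 (distance 0.34), PPP1R2C (0.38) and FAIM2 (0.45), which had 88.3, 105.3 and 108.7 FPKM in yak. Nearest to SUN2 were SPARCL1 (0.31), SLC41A1 (0.32) and CLCN2 (0.36), with 68.9, 70.04 and 66.97 FPKM in cattle-yak. With 2 groups of 3 libraries this likeness reflects mainly the group means.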

How the data were processed

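Per the paper's methods, the authors cleaned paired-end reads with Trimmomatic, aligned those of both groups to the yak genome (LU_Bosgru_v3.0) with HISAT2 and computed FPKM with Cufflinks. FPKM values are used as deposited, 1 column per animal and none pooled. Beyond depth they carry no scaling between libraries, and cattle alleles of the hybrids were measured against yak sequence. The ratios of FPKM between libraries gave back whole fragments for 17973 genes, all those with 2 or more values above 0. Values within 0.03 of a whole number were the condition for recovery, so that their share of 100% was fixed by it. Gene lengths were not part of that condition. They came out whole, within 0.02 bases, for 99.28% of the 15332 genes from which depth was set. Depth in this sense, the divisor of the FPKM values, was 11175100 to 11834987 fragments in cattle-yak and 12991641 to 13136129 in yak. On it, 1 fragment on 1 kb is 0.0761 to 0.0895 FPKM. The read totals that the paper gives per library are larger and similar between the groups. On simulated data the recovery returned the fragments of 98.4% of 17767 genes.

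Groups were compared two-sided with limma 3.58.1 in R 4.3.3 (variance trend) on log2 (FPKM + 1), adjusted over all 15042 genes with a mean of at least 0.5 FPKM. In a simulation on 14944 genes with these group sizes and depths, limma called 179 of 193 genes changed 4-fold and 0 unchanged genes (voom 191 and 0). Few genes changed there, in random directions and with the same spread for all. It therefore cannot show how calls behave under the overall shift between the groups of these data. Nor can it show this for genes that vary more than those simulated, such as SUN3 in cattle-yak (coefficient of variation 94.8%). Shares were tested by exact permutation with scipy 1.17.1. Named were all members, every gene of the other KASH and telomere lists, the highest and lowest gene of each further list, and the 3 profiles nearest to the extreme members (by log2 (FPKM + 1)). SPATA6, PMFBP1, DPY19L2, the genes of the membrane list other than its extremes, TOR1B, ICMT, ZMPSTE24, the low FNTA copy and the marker examples were named after their values were seen. The members and all lists were chosen with earlier results of these data known. Alternatives were pseudocounts of 0.1 and 0.01, no minimum or 5 FPKM, 4 scalings, other priors, voom on fragments, no fold threshold, and the omission of each library. RCE1, BANF1 and MAJIN were not analysed here.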

Additional observations from a re-analysis of the deposited data

How the results depend on the processing

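No paired analysis was possible because the 6 libraries came from different animals, and no pairing of animals between the groups is given. The 4 lower calls among the LINC and lamina genes (SUN3, SPAG4, SUN5 and LMNB2) held under every alternative run. Centred on Sertoli markers, 0 members were called higher and 7 lower, and of the other envelope genes 0 and 33. Of all tested genes, 0.239% were called higher there and 72.2% lower. Median-of-ratios scaling left 3 members and 1 other envelope gene called higher. Voom on fragments with the same size factors (added after the data were seen) left 7 members and 1 other envelope gene. Quantile scaling left 8 members and 4 other envelope genes. The remaining alternatives gave 6 to 8 higher members. By fragments, the SUN share differed by −60.2 points and the SYNE1 share by 1.01 points, and with the most abundant gene ID the latter was −6.94. The sign of these log2 (foldchange) values turned. For SUN1 it was −0.36 with median-of-ratios, −0.37 with voom and median-of-ratios, and −1.94 centred on Sertoli markers. For LMNB1 it was −0.42, −0.46 and −2.04 in that order, and −0.16 with quantile scaling. Centring on Sertoli markers also gave −0.81 for ENSBGRG00000005788, −0.18 for ENSBGRG00000004829, −0.78 for ENSBGRG00000005717, −0.80 for ENSBGRG00000005659 and −1.13 for ENSBGRG00000005643 (all SYNE1), −0.39 for SYNE2, −0.80 for LMNA, −0.79 for TMPO, −1.14 for TOR1A, −0.999 for FNTB and −1.06 for TERF1. These scalings set a common level for other sets of genes by construction, and which of them matches RNA per cell was not tested. TOR1A fell under 1 without TES6 (0.97), Yak8 (0.997) or Yak9 (0.999). Depth limits SUN5 in cattle-yak, where a library held at most 6 fragments.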
